A study of Mus musculus with 9 samples.

Results

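The Ras GTPases Hras and Nras and 7 genes whose products restrain the pathway below Ras, Dusp4, Dusp5, Dusp6, Spry1, Spry2, Spry4 and Spred1, were followed in pancreatic ductal adenocarcinoma (PDAC) cells with and without Yap. The 9 genes were taken by symbol, and all 9 were found among the 47643 genes counted and among the 14105 genes with enough reads to be tested. Of the 9 genes, the Sprouty and Spred genes had the highest estimates in Yap-deleted cells. Their log2 fold changes were 1.19 for Spry2, 1.05 for Spry4, 1.20 for Spred1 and 0.91 for Spry1. The 95% intervals of Spry4 (-0.12 to 2.22) and Spry1 (-0.34 to 2.16) crossed 0, and Spry1 was 0.22 without KPYYF library 4449. At an unadjusted p under 0.05 by edgeR, Spry2 and Spred1 were over 2-fold higher, as were 4.20% of all genes tested. The estimates of the Ras genes and the 3 phosphatase genes lay between -0.42 and 0.11 on the log2 scale. Their 95% intervals crossed 0 and reached from -1.73 (Dusp5) to 1.22 (Dusp4). The estimate of Dusp5 went from -0.42 to -1.45 when a single KPYYF library, 4449, was left out. None of the 9 differences passed adjustment over all genes tested.

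Ras proteins are membrane-bound switches that are active when bound to GTP. Active Ras recruits Raf kinases, which start the cascade from Raf to MEK to ERK, and activated ERK induces, among other genes, inhibitors of its own pathway. The dual-specificity phosphatases Dusp4, Dusp5 and Dusp6 remove the activating phosphates of ERK, Sprouty proteins dampen the signal between growth factor receptors and ERK, and Spred1 brings the Ras-inactivating protein neurofibromin to the membrane. Their transcripts are therefore often read as a sign of ERK output.

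The control mice, KPF, carried Trp53 frt/+, Pdx1-Flp and R26 FSF-CreER/Dual among their alleles, and KPYYF mice carried all alleles of KPF mice together with Yap flox/flox. Flp recombinase under the Pdx1 promoter removed the frt allele of Trp53 and marked pancreatic cells with GFP, so both groups share this background. CreER, which tamoxifen activates, was designed to exchange GFP for tdTomato (Tm) and to delete Yap where it is floxed, and tamoxifen was fed only to mice with established tumors. The groups compared were GFP+Yap+ cells sorted from KPF mice (6 libraries, named by mouse number as 4269, 4435, 4504h, 4504s, 4515 and 4601) and Tm+Yap− cells sorted from KPYYF mice (3 libraries, 4449, 4891 and 4938). The study describes the sequenced cells as taken from lesions that had relapsed under tamoxifen, with KPF and KPYYF mice both treated. GFP+ cells of KPF mice had thus kept the reporter that Cre had not recombined. Genotype, Yap status, reporter color, Cre recombination and any selection of cells able to grow back without Yap changed together and cannot be told apart. Mice of both sexes were used in the study, and the age of each mouse is not given in the sources used here. Libraries 4504h and 4504s share a mouse number, so the 6 KPF libraries may come from 5 animals.

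Libraries held 8116539 to 9635514 reads on genes, and values are given as CPM (counts scaled by TMM to a common library size), so that a count of 0 allows up to 0.292 to 0.437 CPM (3 counts, counting error only). Yap1 was at 41.8 to 151 CPM in KPF and at only 0.712 to 7.12 CPM in KPYYF cells, with a difference of -4.79 on the log2 scale (adjusted p = 0.0159, edgeR quasi-likelihood test), and its adjusted p was 0.0553 without KPYYF library 4891 and 0.0886 with limma-voom. Of the markers of ductal carcinoma cells, 8 of 8 were lower in KPYYF cells and 3 passed adjustment, with a summed level of 3507 to 9161 CPM in KPF and 622 to 1879 CPM in KPYYF libraries. The summed immune markers were at 432 to 8278 CPM in KPF, highest in 4601, and at 414 to 717 CPM in KPYYF libraries. Acinar markers summed to 66.6 to 20290 CPM in KPF, highest in 4504s, and to 76.3 to 5970 CPM in KPYYF libraries, highest in 4449, with Amy2a2 at 0 in all 9. Fibroblast markers summed to 414 to 5554 CPM and 1140 to 3119 CPM, endothelial markers to 14.6 to 76.8 CPM and 14.9 to 16.1 CPM, and islet markers to 2.45 to 74.1 CPM and 2.63 to 20.4 CPM in KPF and KPYYF libraries. Xist, which is transcribed from the silenced X of females, was high in the 3 KPYYF libraries and in KPF libraries 4435, 4504h and 4504s. Reads on genes took 37.3 to 38.2% of each KPYYF and 38.5 to 42.0% of each KPF file, and reads without a unique alignment 49.2 to 53.4% and 43.8 to 48.5%, so both shares separated the groups. The part of these differences in the results was not tested. In sorted bulk cells, fewer cells that express a gene and less RNA per cell cannot be told apart.

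Promoter sequences are shown for the members with the largest differences, Spry2 and Spred1, and for those holding a searched motif, Dusp5 and Spry1. Each runs over the 250 bases before the RefSeq start (build GRCm38.p6), 5′ to 3′ on the strand of the gene, with motif matches in capitals. The motifs were the TEAD element GGAATG (TEAD factors carry Yap to DNA), the AP-1 element TGANTCA, the ETS element CCGGAAGT, the cyclic AMP response element TGACGTCA, and the CArG box bound by serum response factor, all searched on both strands.
Dusp5, chr19:53528895-53529144, plus strand: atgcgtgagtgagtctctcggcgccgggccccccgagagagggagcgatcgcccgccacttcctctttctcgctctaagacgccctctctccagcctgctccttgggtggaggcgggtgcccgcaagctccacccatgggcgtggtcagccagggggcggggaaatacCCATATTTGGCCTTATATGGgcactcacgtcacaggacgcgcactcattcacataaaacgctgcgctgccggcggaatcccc
Spry1, chr3:37639697-37639946, plus strand: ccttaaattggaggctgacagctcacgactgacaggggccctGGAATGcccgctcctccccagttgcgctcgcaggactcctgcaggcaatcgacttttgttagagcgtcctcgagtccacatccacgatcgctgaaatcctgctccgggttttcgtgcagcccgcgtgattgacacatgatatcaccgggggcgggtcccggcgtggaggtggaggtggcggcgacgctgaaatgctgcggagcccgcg
Spry2, chr14:105896820-105897069, minus strand: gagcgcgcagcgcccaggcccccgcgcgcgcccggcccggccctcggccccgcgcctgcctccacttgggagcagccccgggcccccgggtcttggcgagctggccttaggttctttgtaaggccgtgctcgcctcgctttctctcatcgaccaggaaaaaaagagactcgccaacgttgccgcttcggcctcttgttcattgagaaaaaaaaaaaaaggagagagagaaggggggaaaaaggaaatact
Spred1, chr2:117120821-117121070, plus strand: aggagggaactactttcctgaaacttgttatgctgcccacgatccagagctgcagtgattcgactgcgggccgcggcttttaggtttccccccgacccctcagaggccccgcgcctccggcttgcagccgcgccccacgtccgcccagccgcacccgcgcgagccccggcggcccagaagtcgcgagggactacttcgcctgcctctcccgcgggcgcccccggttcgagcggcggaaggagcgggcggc
The Dusp5 window held 2 adjacent CArG boxes, CCATATTTGG at 82 and CCTTATATGG at 72 bases before the start. A CArG box was found in 1.47% of 32851 promoter windows of the same length. The Spry1 window held 1 GGAATG, 208 bases before the start, which 12.6% of windows also held. The windows of Hras, Nras, Dusp6, Spry2 and Spred1 held none of the 5 motifs, whose shares over all windows were 6.75% for AP-1, 2.88% for ETS and 1.55% for the cyclic AMP element. A match is a description of the letters, and Dusp4 and Spry4 had no entry among the promoter sequences.

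**Figure D1:**
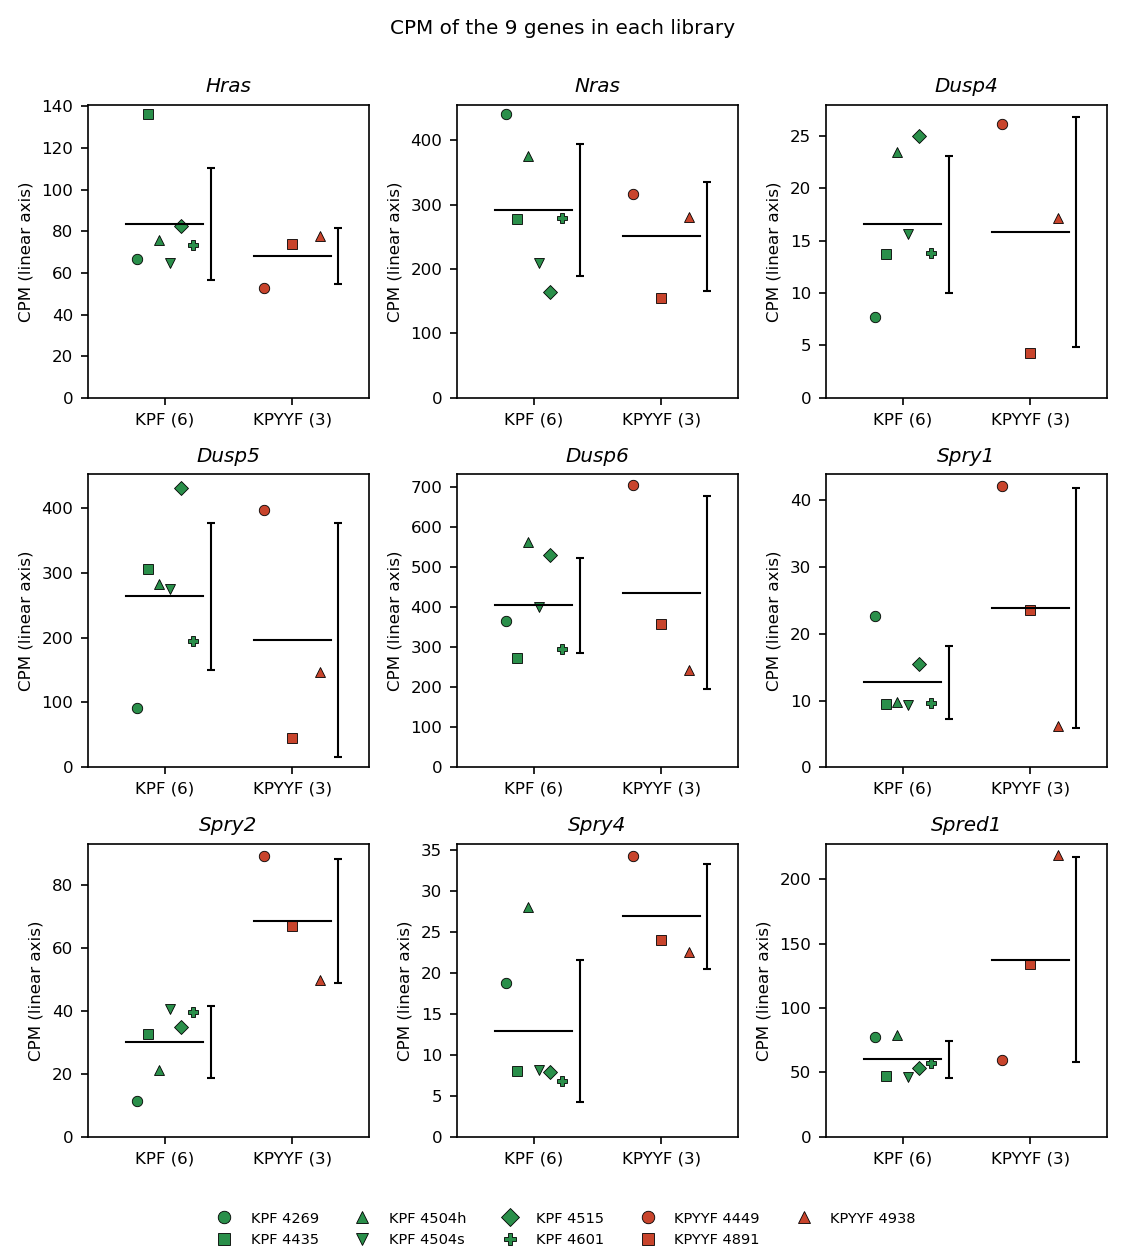
CPM of each of the 9 genes in the 6 KPF (green) and 3 KPYYF (red) libraries on linear axes that start at 0, with the group mean (line) and SD (bar). In Spry2 the KPYYF libraries, at 49.6 to 89.1 CPM, lie above all KPF libraries, at 11.3 to 40.4 CPM, and in the other 8 genes the groups overlap.

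Hras and Nras encode closely related Ras switches that differ in their membrane anchors. Hras (ENSMUSG00000025499, chr7:141189105-141194005, minus strand) was at 66.5, 136, 75.6, 64.8, 82.7 and 73.5 CPM in KPF libraries 4269, 4435, 4504h, 4504s, 4515 and 4601, and at 52.7, 73.9 and 77.8 CPM in KPYYF libraries 4449, 4891 and 4938. Library 4435 stood above the other KPF libraries, and of the KPYYF libraries only 4449 lay below the KPF range. On the log2 scale Hras differed by -0.29 (SE 0.32, 95% interval -0.98 to 0.40, adjusted p = 0.723 by edgeR's quasi-likelihood test; exact permutation p = 0.429). Nras (ENSMUSG00000027852, chr3:103058285-103067914, plus strand) was at 441, 278, 376, 210, 165 and 279 CPM in KPF libraries in the same order, and at 317, 156 and 281 CPM in KPYYF libraries. Its KPYYF values spread over most of the KPF range, with 4891 just below the lowest KPF library, 4515. The log2 fold change of Nras was -0.21 (SE 0.34, 95% interval -0.96 to 0.53, adjusted p = 0.829 by edgeR; exact permutation p = 0.631), and it was 0.04 without KPYYF library 4891. The intervals leave room for a fall of nearly 2-fold in either gene, and for a rise of less than 1.5-fold.

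Dusp6 is the cytoplasmic ERK phosphatase, and Dusp4 and Dusp5 act in the nucleus. Dusp6 (ENSMUSG00000019960, chr10:99263231-99267489, plus strand) was at 365, 274, 563, 400, 531 and 297 CPM in the KPF libraries and at 707, 358 and 244 CPM in the KPYYF libraries. KPYYF library 4449 lay above and 4938 below every KPF library. Between the groups the log2 fold change of Dusp6 was 0.11 (SE 0.35, 95% interval -0.65 to 0.86, adjusted p = 0.927 by edgeR; exact permutation p = 0.976), and it turned to -0.43 without 4449. Dusp5 (ENSMUSG00000034765, chr19:53529109-53542431, plus strand), whose promoter holds the pair of CArG boxes, was at 91.6, 305, 283, 275, 431 and 194 CPM in KPF and at 396, 45.9 and 147 CPM in KPYYF libraries. The KPYYF libraries differed from each other by 8.63-fold, the widest span among the 9 genes, and 4891 was lower than any KPF library. The log2 fold change of Dusp5 was -0.42 (SE 0.59, 95% interval -1.73 to 0.88, adjusted p = 0.796 by edgeR; exact permutation p = 0.357), with 0.05 without 4891 and -1.45 without 4449. Dusp4 (ENSMUSG00000031530, chr8:34807297-34819894, plus strand) was at 7.68, 13.7, 23.5, 15.6, 25.0 and 13.8 CPM in KPF and at 26.1, 4.26 and 17.2 CPM in KPYYF libraries. Again 4449 was the highest and 4891 the lowest of all 9 libraries. For Dusp4 the log2 fold change was -0.06 (SE 0.59, 95% interval -1.34 to 1.22, adjusted p = 0.977 by edgeR; exact permutation p = 0.75), with 0.39 once 4891 was left out, 0.06 without 4504h and 0.11 without 4515. These intervals leave room for a fall or a rise of over 2-fold in Dusp4. For Dusp5 they leave room for a fall of over 2-fold and for a rise of less than 2-fold. The first 547 bases of Dusp5 overlap an exon of the antisense gene AC137853.2, at the end opposite to that read by 3′ libraries, and whether reads were counted by strand is not given in the sources used here, so that reads from that stretch cannot be told apart.

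The Sprouty genes encode inhibitors that are phosphorylated at growth factor receptors and act on the path to Ras and Raf. Spry2 (ENSMUSG00000022114, chr14:105891947-105896819, minus strand) was at 11.3, 32.5, 21.3, 40.4, 35.0 and 39.6 CPM in KPF libraries 4269, 4435, 4504h, 4504s, 4515 and 4601, and at 89.1, 66.8 and 49.6 CPM in KPYYF libraries 4449, 4891 and 4938. Each KPYYF library was above every KPF library, which held in this direction for 3.92% of all genes tested. The mean was 30.01 ± 11.5 CPM (SD, n = 6) in KPF and 68.5 ± 19.8 CPM (SD, n = 3) in KPYYF libraries. The log2 fold change of Spry2 was 1.19 (SE 0.40, 95% interval 0.32 to 2.06, adjusted p = 0.165 by edgeR; exact permutation p = 0.0357, where the smallest possible p is 0.0119). The estimate lay between 0.96 and 1.38 in the 18 alternatives, and the adjusted p between 0.0801 and 0.317.

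Spry4 (ENSMUSG00000024427, on chromosome 18, minus strand), a second Sprouty gene induced by ERK, was at 18.8, 7.99, 28.0, 8.09, 7.86 and 6.85 CPM in KPF libraries and at 34.2, 23.9 and 22.5 CPM in KPYYF libraries. KPF libraries 4269 and 4504h stood apart from the other 4, and 4504h reached above 2 of the 3 KPYYF libraries. Spry4 had a log2 fold change of 1.05 (SE 0.54, 95% interval -0.12 to 2.22, adjusted p = 0.368 by edgeR; exact permutation p = 0.0833). Spry1 (ENSMUSG00000037211, chr3:37639947-37644598, plus strand), whose promoter window holds GGAATG, was at 22.7, 9.43, 9.71, 9.34, 15.5 and 9.62 CPM in KPF libraries and at 42.0, 23.5 and 6.14 CPM in KPYYF libraries. KPYYF libraries 4449 and 4891 lay above all KPF libraries and 4938 below all of them. Spry1 had a log2 fold change of 0.91 (SE 0.58, 95% interval -0.34 to 2.16, adjusted p = 0.482 by edgeR, exact permutation p = 0.357), and it was 0.22 without 4449. Of the KPYYF libraries, 4449 had the highest sum of every marker list except that of fibroblasts, and the part of this in Spry1 was not tested. Spry1 shares up to 710 exonic bases with Gm42922 on the opposite strand, and reads there cannot be told apart either.

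Spred1 (ENSMUSG00000027351, chr2:117121374-117182279, plus strand), the partner of neurofibromin, was at 77.6, 47.2, 78.8, 46.5, 53.2 and 57.3 CPM in KPF libraries and at 60.0, 134 and 219 CPM in KPYYF libraries 4449, 4891 and 4938. The 6 KPF libraries were close together, spanning 1.70-fold, while 4449 lay within their range and 4891 and 4938 lay above it. The mean was 60.1 ± 14.6 CPM (SD, n = 6) in KPF and 138 ± 79.4 CPM (SD, n = 3) in KPYYF libraries. The log2 fold change of Spred1 was 1.20 (SE 0.36, 95% interval 0.41 to 1.98, adjusted p = 0.127 by edgeR; exact permutation p = 0.0357). Here a single library and the choice of test decided the call. Without 4449 the log2 fold change was 1.55 (adjusted p = 0.0341 by edgeR), without 4938 it was 0.69 (adjusted p = 0.444), and the Wald test of DESeq2 gave an adjusted p of 0.0453 with all 9 libraries. Without 4449 and the KPF libraries with the highest immune and acinar markers, 4601 and 4504s, it was 1.49 (adjusted p = 0.066 by edgeR).

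**Figure D2:**
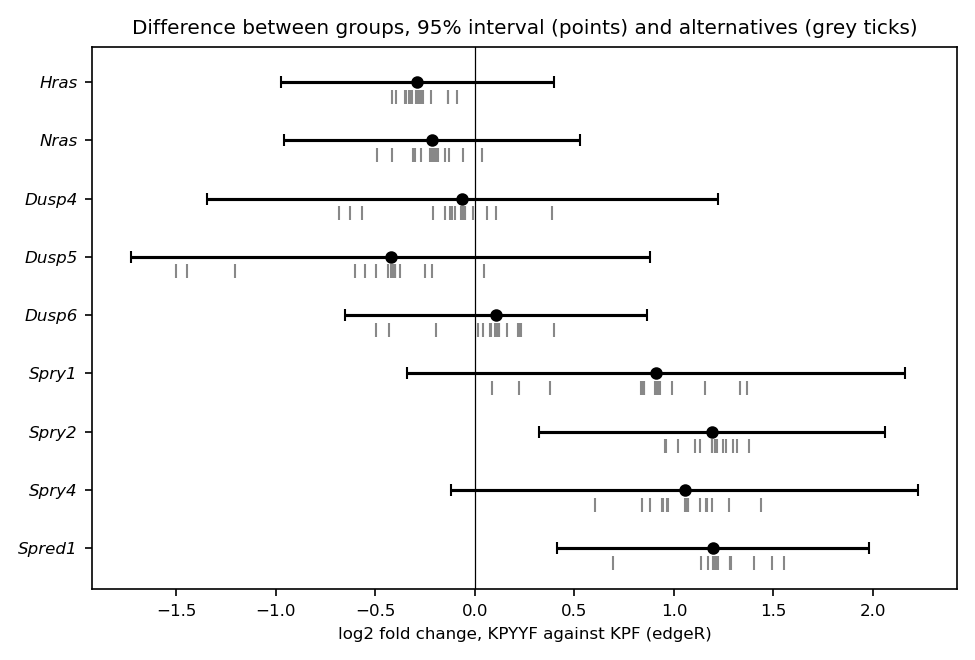
Log2 fold change of each gene, KPYYF against KPF, with its 95% interval (points and bars, edgeR), above grey ticks for the estimates under the 18 alternatives. The intervals of Spry2 (0.32 to 2.06) and Spred1 (0.41 to 1.98) lie above 0, and those of the other 7 genes cross it.

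As counts, 0 of the 9 genes passed adjustment with edgeR, where 1.10% of all genes tested did (43 higher and 112 lower in KPYYF). At an unadjusted p under 0.05, 2 of the 9, Spry2 and Spred1, were higher in KPYYF and 0 were lower. Among all genes 6.10% were higher at this level, and 16.1% differed in either direction (860 higher and 1416 lower). The methods of the study set a cutoff on p of 0.05 and a fold of 2 in DESeq2, without saying whether p was adjusted. Applied here to the unadjusted p of edgeR, it held for the same 2 genes and for 4.20% of all genes in this direction. DESeq2 called 1 of the 9, Spred1, and 1.96% of all genes with an adjusted p as higher, and limma-voom called 0 (smallest adjusted p 0.0893, Spred1). The median log2 fold change was 0.11 over the 9 genes and -0.07 over all genes tested.

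The KPYYF libraries did not share 1 pattern. Library 4449 was the highest of the 3 in 7 of the 9 genes and the lowest in the other 2, Hras and Spred1. Library 4938 was the lowest in 4 genes, Dusp6, Spry1, Spry2 and Spry4, and the highest in Hras and Spred1, and library 4891 was the lowest in Nras, Dusp4 and Dusp5. Between the highest and lowest KPYYF library, the span was 6.85-fold for Spry1, 6.13-fold for Dusp4 and 3.65-fold for Spred1, against 1.79-fold for Spry2, 1.52-fold for Spry4 and 1.48-fold for Hras. Among KPF libraries the widest spans were those of Dusp5, at 4.70-fold, and Spry4, at 4.09-fold. No KPF library was the highest in more than 3 genes.

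Ratios of counts between genes of a family within a library do not depend on how the library is scaled, and 7 such pairs were compared. The log2 ratio of Dusp4 to Dusp5 was the steadiest of the phosphatase pairs. It was -3.93 ± 0.36 (SD, n = 6) in KPF and -3.45 ± 0.42 (SD, n = 3) in KPYYF libraries, and from -4.45 to -3.08 over all 9, while both genes varied several-fold. The difference was 0.48 (exact permutation p = 0.119, adjusted over the 7 pairs 0.833). The log2 ratio of Spry2 to Spry4 was 1.37, 1.47 and 1.14 in KPYYF libraries 4449, 4891 and 4938, but ran from -0.72 in 4269 and -0.39 in 4504h to 2.00, 2.29, 2.12 and 2.48 in KPF libraries 4435, 4504s, 4515 and 4601. The means were close, at 1.30 and 1.33, and the KPF libraries lay on both sides of the KPYYF libraries with none between them. Spry1 to Spry2 was 0.99 in KPF library 4269, the only library in which it was above 0. The log2 ratio of Hras to Nras differed by -0.06 between groups, and its values ran from -2.72 to -0.99 in KPF and from -2.58 to -1.07 in KPYYF libraries. No pair passed the exact permutation test (p from 0.119 to 0.976, adjusted 0.833 to 0.976).

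**Figure D3:**
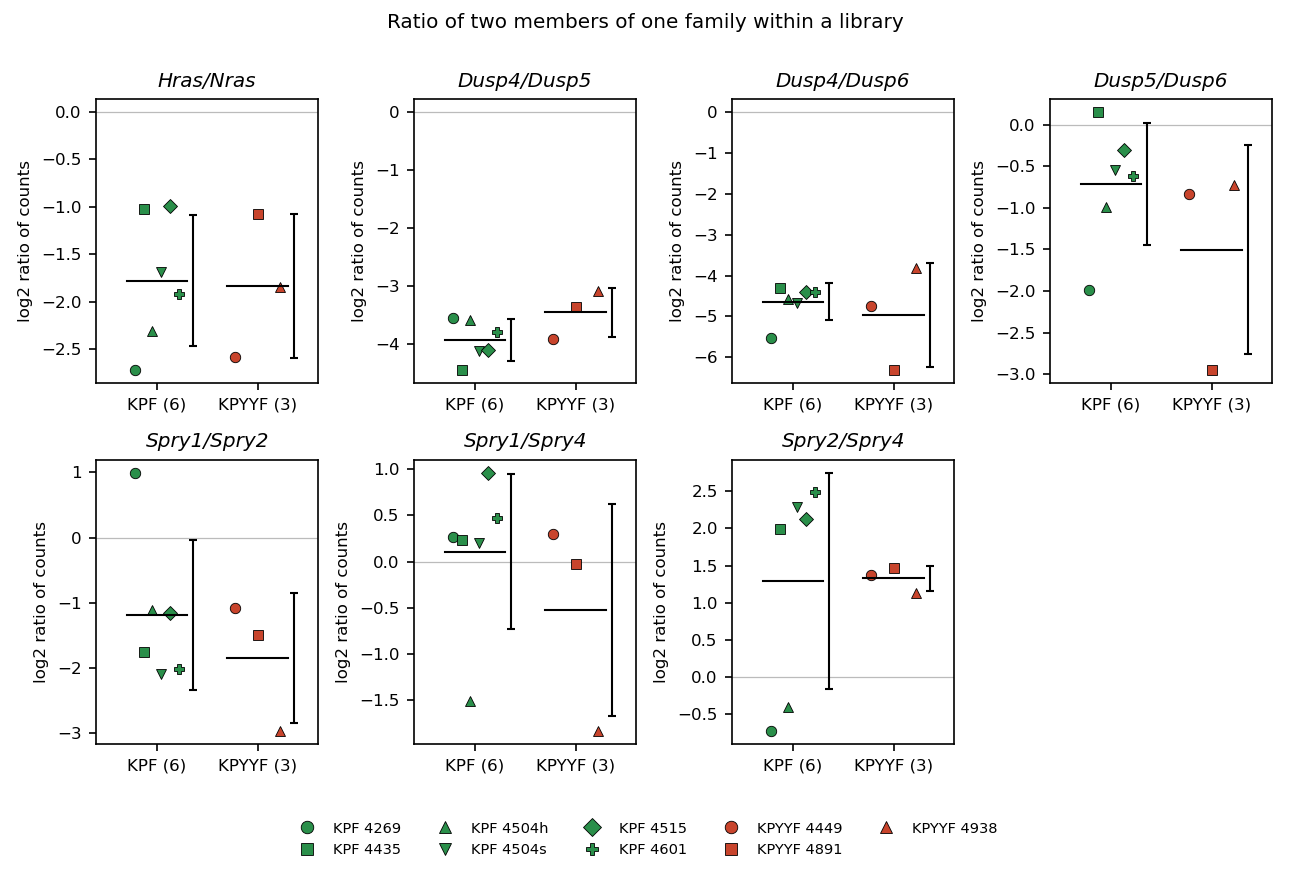
Log2 ratio of the counts of 2 genes of a family in each KPF (green) and KPYYF (red) library, with group means (lines) and SD (bars); the grey line marks equal counts. The Spry2/Spry4 ratio is 1.14 to 1.47 in KPYYF libraries and -0.72 to 2.48 in KPF libraries.

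The genes around the 9 in the pathway were described from written lists. Among all genes tested, 6.10% were higher and 10% lower at an unadjusted p under 0.05, and 1.10% passed adjustment by edgeR. Of 12 other feedback inhibitors tested, 8 had higher and 4 lower estimates (median log2 fold change 0.40, or 0.24 without KPYYF library 4449), and 0 passed adjustment by edgeR, while DESeq2, which called 8.71% of all genes with an adjusted p in either direction, called 1, Dusp9. Dusp9, another ERK phosphatase, had the highest estimate. It was at 41.2, 144 and 111 CPM in KPYYF libraries and from 0.292 to 38.2 CPM in KPF libraries (log2 fold change 2.42, SE 0.89, adjusted p = 0.212 by edgeR). The groups did not overlap, which held in this direction for 3.92% of all genes tested. Dusp10, which acts mainly on the stress kinases p38 and JNK, had the lowest. It was at 7.84, 0.109 and 2.52 CPM in KPYYF and from 9.18 to 22.9 CPM in KPF libraries, again without overlap, which held in this direction for 5.18% of all genes tested (log2 fold change -2.31, SE 0.91, adjusted p = 0.227 by edgeR). At an unadjusted p under 0.05, Dusp9 and Lrig1, an inhibitor of growth factor receptors, were higher, and Dusp10 and Dusp8 were lower; Lrig1 and Dusp8 were named after their values were seen.

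Of 11 Ras-related GTPases tested, 3 had higher and 8 lower estimates (median -0.26). By edgeR 0 passed adjustment and 1, Diras2, was lower at an unadjusted p under 0.05; DESeq2 called 1. Rasd1, induced by glucocorticoids, had the highest estimate, 0.94 (SE 1.10; 0.25 to 1.28 when libraries were left out), with 9.02, 3.50 and 2.85 CPM in KPYYF libraries. Diras2 had the lowest, with at most 0.438 CPM in KPYYF libraries and from 0.221 to 14.1 CPM in KPF libraries. Of 12 exchange factors (which load Ras with GTP) and adaptors, 4 had higher and 8 lower estimates (median -0.62). That median rested on KPF library 4601, the one with the highest immune markers: it was -0.018 without 4601, -0.25 with limma-voom and -0.13 in the libraries with high Xist. By edgeR 0 passed adjustment, and at an unadjusted p under 0.05, 1 was higher and 3 lower; DESeq2 called 3. Sos1, the exchange factor that links growth factor receptors to Ras, was at 48.8, 30.5 and 51.4 CPM in KPYYF libraries and from 19.1 to 26.9 CPM in KPF libraries (log2 fold change 0.90, SE 0.34, adjusted p = 0.204 by edgeR). Rasgrp4, known from mast cells, had no read in the 3 KPYYF libraries or in 2 of the 6 KPF libraries. Set against 3 counts, a bound for counting error only, its mean was at least 11.9-fold lower. KPF library 4601 had the highest level, and without it this bound was 6.88-fold. The groups of Rasgrp4 overlapped, and it missed adjustment by edgeR (adjusted p = 0.191, exact permutation p = 0.167) but passed by DESeq2 (adjusted p = 0.0144). The other 2 of the 3 lower genes were Rasgrp3 and Rasgrf2, named after their values were seen. Rasgrp3, an exchange factor of lymphoid and endothelial cells, was at 2.85, 1.97 and 0.219 CPM in KPYYF and from 9.52 to 87.8 CPM in KPF libraries (adjusted p = 0.0669 by edgeR). Rasgrf2, a calcium-responsive exchange factor, was at 0.356, 2.30 and 0.877 CPM in KPYYF and from 6.54 to 33.9 CPM in KPF libraries (adjusted p = 0.0629 by edgeR). In both genes the groups did not overlap, which held in this direction for 5.18% of all genes tested. The endothelial marker sum was at 14.9 to 16.1 CPM in KPYYF and at 14.6 to 76.8 CPM in KPF libraries (KPF median 62.2 CPM). KPF library 4269, which had the lowest endothelial sum, had Rasgrp3 at 50.6 CPM and Rasgrf2 at 18.3 CPM. The immune marker sum was at 414 to 717 CPM in KPYYF libraries beside a KPF median of 665 CPM. The part of either cell type was not tested.

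Of 9 GTPase-activating proteins and regulators of Ras turnover, which return Ras to its inactive state or degrade it, 4 had higher and 5 lower estimates (median -0.16, but 0.15 without KPF library 4504h and -0.42 without KPYYF library 4449). By edgeR and by DESeq2 0 passed adjustment, and 1, Rasa1, was higher at an unadjusted p under 0.05. Rasa1 (p120 RasGAP) had the highest estimate, at 189, 132 and 188 CPM in KPYYF and from 50.1 to 173 CPM in KPF libraries (log2 fold change 0.92, SE 0.37, adjusted p = 0.231 by edgeR). Rasa4, a calcium-regulated RasGAP, had the lowest (log2 fold change -1.71, SE 1.07). Of 15 kinases and scaffolds of the Raf-MEK-ERK cascade, 4 had higher and 11 lower estimates (median -0.23). By edgeR and by DESeq2 0 passed adjustment, and 1, Rps6ka1 (named after its value was seen), was lower at an unadjusted p under 0.05. The extremes were 2 ribosomal S6 kinases with few reads, Rps6ka6 (2.82, SE 1.58) and Rps6ka2 (-1.34, SE 1.68). Neither size was stable: Rps6ka6 was 0.35 with limma-voom, and Rps6ka2 was -5.82 without KPYYF library 4938 and -0.76 without 4449. Of 13 genes for the lipid processing and transport of Ras, 5 had higher and 8 lower estimates. Their median was -0.19, but 0.13 without KPYYF library 4449 and 0.029 without KPF library 4601. By edgeR or DESeq2 0 passed adjustment, and 0 had an unadjusted p under 0.05 by edgeR. They lay between Golga7 (-0.91, SE 0.57), a subunit of the Ras palmitoyltransferase, and Lypla1 (0.67, SE 0.43), a depalmitoylating enzyme.

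Of 19 genes that ERK induces outside the feedback families, 9 had higher and 10 lower estimates (median -0.10, with -0.53 to 0.073 when libraries were left out). At an unadjusted p under 0.05, 2 were higher and 4 lower, beside 6.10% and 10% of all genes tested. By edgeR 1 passed adjustment, beside 1.10% of all genes tested. That gene was Maff, a small Maf transcription factor, which fell from 51.4, 41.1, 57.7, 64.6, 116 and 50.3 CPM in the KPF libraries to 13.4, 13.4 and 17.9 CPM in the KPYYF libraries (log2 fold change -2.09, SE 0.41, adjusted p = 0.0351 by edgeR). The call was lost without any one of KPF libraries 4435, 4504s and 4515 or KPYYF libraries 4449, 4891 and 4938, with an adjusted p of 0.0552 to 0.105. The genes higher at an unadjusted p under 0.05 were Etv1, an ETS factor, and Ereg, a ligand of the EGF receptor, and the others lower were the ephrin receptors Epha2 and Epha4 and the ligand Hbegf, all named after their values were seen. Ereg was at 92.6, 124 and 469 CPM in KPYYF and from 7.39 to 88.2 CPM in KPF libraries (log2 fold change 2.20, SE 0.67, adjusted p = 0.141 by edgeR). Etv1 was at 38.4, 25.5 and 57.9 CPM in KPYYF and from 3.21 to 19.6 CPM in KPF libraries (log2 fold change 1.69, SE 0.55, adjusted p = 0.155 by edgeR). Over all genes tested 46.7% had a higher estimate.

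**Figure D4:**
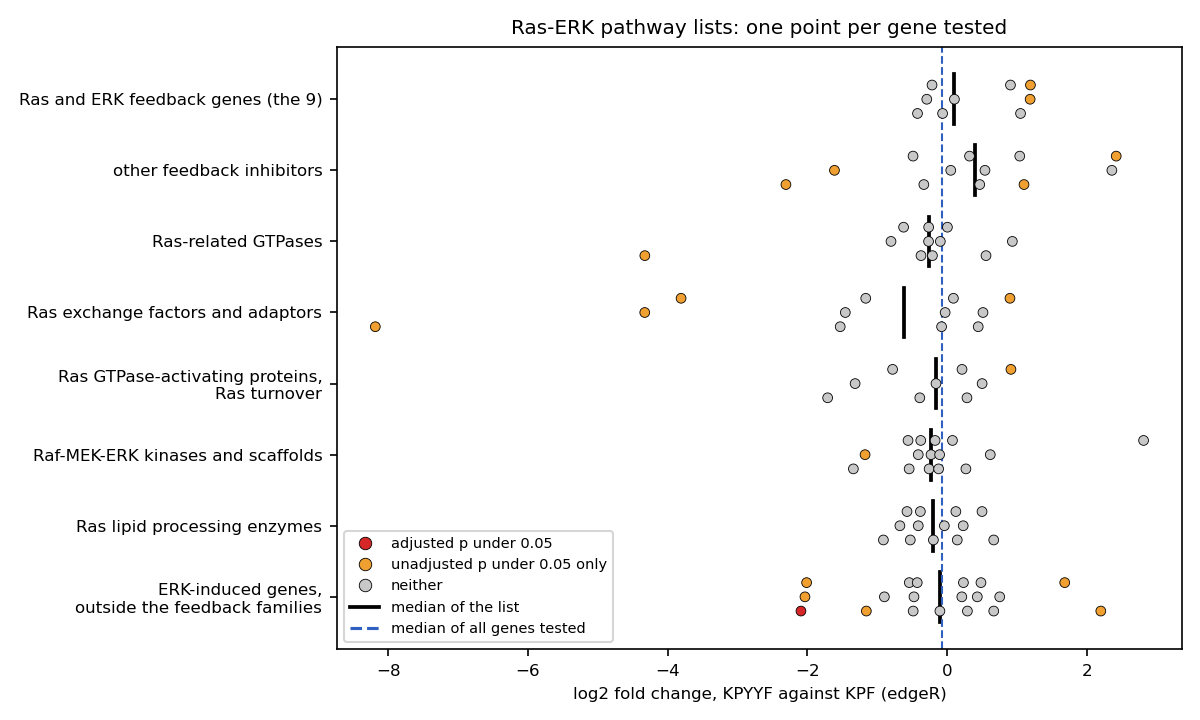
Log2 fold change, KPYYF against KPF (edgeR), of each gene tested in the 9 Ras and ERK feedback genes and the 7 pathway lists, with list medians (black bars) and the median of all genes tested, -0.07 (dashed line). Points are red for an adjusted p under 0.05 (Maff), orange for an unadjusted p under 0.05 only and grey for neither; list medians lie between -0.62 and 0.40, and the lowest, of the exchange factors, is -0.018 without KPF library 4601.

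The genes whose levels followed each member most closely over the 9 libraries were sought among 9188 genes with a mean of at least 10 CPM, by the root mean square difference of log2 CPM centred on its mean. The 3 nearest were Glrx (0.17), Telo2 (0.26) and Ric1 (0.35) for Spry2. For Spred1 the first 2 were Sms (0.26) and Hacd1 (0.29). For Spry4 they were Irs1 (0.26), Pomt1 (0.32) and Thoc1 (0.34), and for Spry1 Poc1b (0.28), Bcl9 (0.35) and Rbm26 (0.38). Dusp4 and Dusp5 had Pcsk7 and Pex16 in common, and Dusp4 itself was the third nearest of Dusp5 (0.40), while Mical2 was nearest to Dusp4 (0.34). Dusp6 was nearest to Yipf5 (0.21), Togaram1 (0.22) and Zfp317 (0.22). Hras was nearest to H13 (0.14), Inf2 (0.16) and Glmp (0.17), and Nras to Med17, Cdc42se1 and Arl2 (each 0.21). These are likenesses over 9 libraries, picked as the closest of 9188 candidates, and how close genes lie by chance was not tested.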

How the data were processed

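FACS-sorted GFP+ cells of KPF mice (6 libraries) and Tm+ cells of KPYYF mice (3 libraries) were profiled with Lexogen QuantSeq 3′ Forward libraries of polyadenylated RNA. Each deposited file holds raw counts of reads per Ensembl gene in 1 library, as the authors counted them, without normalization. The submitters' processing notes name STAR, HTSeq and mm10, and their versions, the annotation and the strand setting are not given in the sources used here. The methods of the study describe BeadChip hybridization, but the values are read counts in whole numbers whose totals differ between libraries. Unassigned reads (no feature, ambiguous or not unique) were left out of library sizes.

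Symbols and positions came from GENCODE M21 (GRCm38). Genes reaching a sum of 100 counts were tested with the robust quasi-likelihood test of edgeR 4.0.16 (R 4.3.3) with TMM factors and no covariates, and p values were adjusted by Benjamini-Hochberg over all 14105 genes with a threshold of 0.05. All tests were two-sided. CPM used TMM-scaled sizes, and log2 CPM and ratios a prior count of 2. Single values were compared by exact permutation over the 84 splits of 9 libraries into 6 and 3 (smallest p 0.0119). Nothing states that libraries came from separate animals beyond their mouse numbers, so p values measure the spread between these libraries. The alternatives were DESeq2 1.42.0, limma-voom (limma 3.58.1) with quality weights, RLE and upper quartile factors, no filter, filterByExpr, 4504h and 4504s summed, each library left out, libraries with at least 1000 Xist reads, a prior count of 0.5 for log2 CPM and ratios, and, chosen after seeing the data, leaving out 4601, 4504s and 4449. The members, lists and tests were chosen with earlier results of these data known. Named genes were all members, Yap1, in each list the genes past adjustment or otherwise the highest and lowest estimate, and the 3 nearest genes of each member; 1 nearest gene and 1 allele shared by both groups are not reported here. Of the listed pathway genes, Spry3 found no match, and 8 had under 100 counts and were not tested. The tools were tested on simulated data.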

Additional observations from a re-analysis of the deposited data

Results flagged for a closer look

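Of 16 sets of KPF values examined (log2 CPM of the 9 genes and 7 ratios), 4 had an end value whose gap to its neighbor, as a share of the whole range, was above the 95% critical value of Dixon for 6 samples. Chance flags about 1 in 20 such sets, but these sets share genes and libraries, so the 4 flags are not independent. Hras was far higher in KPF library 4435 than in the other 5 (gap share 0.673). The ratio of Dusp4 to Dusp6 was far lower in 4269 (0.706), and in the same library the ratio of Spry1 to Spry2 was far higher (0.684). The ratio of Spry1 to Spry4 was far lower in 4504h (0.693). Library 4269 also had the lowest Dusp4, Dusp5 and Spry2 and the highest Nras and Spry1 of the KPF libraries.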

How the results depend on the processing

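Across the 18 alternatives, Spry1, Spry2, Spry4 and Spred1 kept a positive and Hras a negative edgeR, DESeq2 or voom estimate, and 2 to 3 members met the 2-fold cutoff. The number of members past adjustment was 1 (Spred1) with DESeq2 and 0 to 1 when libraries were left out in turn. All genes called numbered 155, against 1197 with DESeq2, 83 with limma-voom, 307 without a filter, 37 in the libraries with high Xist, 237 without 4601, 4504s and 4449, and 23 to 273 when libraries were left out. DESeq2 called 1 other feedback inhibitor, 1 Ras-related GTPase, 3 exchange factors and 3 ERK-induced genes. Without a filter 2 exchange factors and 2 ERK-induced genes passed. Of the ERK-induced genes 0 passed with limma-voom, with 4504h and 4504s summed, in the libraries with high Xist, or without 4601, 4504s and 4449, and 0 to 1 when libraries were left out. In the libraries with high Xist 1 other feedback inhibitor passed. Members with an exact permutation p under 0.05 were 2, with 0 to 3 when libraries were left out, 0 in the libraries with high Xist, where 3 against 3 cannot go below 0.1, and 0 without 4601, 4504s and 4449. Several estimates that missed the threshold changed sign. Dusp6 was -0.20 with limma-voom and -0.50 without 4601, 4504s and 4449, where its log2 CPM difference was -0.46, that of Spry1 -0.12 and that of the ratio of Hras to Nras 0.30. When libraries were left out, the log2 fold change of Nras ran from -0.42 to 0.038, of Dusp4 from -0.63 to 0.39, of Dusp5 from -1.45 to 0.046 and of Dusp6 from -0.43 to 0.40. The matching log2 CPM differences ran from -0.40 to 0.11, -0.82 to 0.45, -1.53 to 0.023 and -0.403 to 0.37. Differences in log2 ratio ran from -0.44 to 0.32 for Hras to Nras, -0.89 to 0.37 for Dusp4 to Dusp6, -1.04 to 0.030 for Spry1 to Spry4 and -0.37 to 0.27 for Spry2 to Spry4. No paired analysis was possible because replicate numbers were given in accession order only. The cause of these changes was not tested. Depth gave 39 to 5953 reads per member and library, and the shares of counting error and of spread between libraries in the intervals were not separated.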
